A study of Mus musculus with 6 samples.

Results

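The genes described here are the immediate early genes and the response genes of nuclear factor kappa B (NF-kB), measured on 6 mouse microarrays. They were chosen by name: of 35 genes listed, 34 had at least 1 probe set carrying that symbol alone, for 61 probe sets out of 45101 and 34 genes out of 18193. Nfkb1 was not matched and is not analysed here. Of the 34 genes, 17 had a single probe set and 17 had several.

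The arrays held RNA of 2 kinds of cultured mouse T cell, 3 arrays each. The 2D11 arrays (numbers 1, 2 and 4) are labelled CD8aa Tregs, CD8 T cells carrying the alpha homodimer of CD8 that the series' title describes as regulatory and restricted by the class Ib molecule Qa-1. The OvacD8 arrays (numbers 1, 2 and 3) are labelled OT-1 CD8aa+TCRab+ T cells, and OT-1 is a transgenic receptor for a peptide of ovalbumin. All samples are labelled as T cell clones, and cells of both kinds grew with their own antigen, antigen-presenting cells and IL-2. Each kind may be repeats of a single clone, so a p-value here reflects array-to-array spread alone, and that spread may be technical. In bulk RNA, fewer cells expressing a gene and less RNA per cell cannot be told apart. The interval between antigen and RNA extraction is not given in the sources used here. The comparison asks how expression in the 2D11 cells differs from that in the OvacD8 cells.

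Immediate early genes are transcribed within minutes of a signal, from factors already present in the cell and without new protein synthesis. In T cells the antigen receptor drives them through the ERK kinases, calcium and NF-kB. Many encode transcription factors, such as the AP-1 proteins FOS and JUN and the zinc finger proteins of the EGR family. NF-kB dimers are held in the cytoplasm by inhibitors such as IkB-alpha, the product of Nfkbia, and they switch on the genes of several of their own inhibitors.

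Values are log2 expression centred on the median of each probe set over the 6 arrays, averaged over the probe sets of a gene. A value of 0 is therefore the middle of these arrays and says nothing of how strongly a gene was expressed. A gene that lies at background on all arrays also stands near 0 on all of them. A range under 0.1 was found for 6 of the 61 members' probe sets (9.84%) and for 34.4% of all probe sets.

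The OvacD8 arrays were not alike. Across the 12198 genes spanning at least 0.1, OvacD8-2 and OvacD8-3 correlated at r = 0.916, while OvacD8-1 correlated with them at 0.286 and 0.296. The poly-A spike-in controls, bacterial transcripts added to the RNA to follow its labelling, averaged -0.11 to 0.82 on the 2D11 arrays and 0.49 on OvacD8-1. They averaged -1.58 on OvacD8-2 and -2.39 on OvacD8-3. The controls of the hybridisation step averaged -0.35 on OvacD8-2, -0.80 on OvacD8-3 and -0.15 to 1.09 on the other 4 arrays. The 3' minus 5' value of the Actb control was -0.38 and -0.32 on OvacD8-2 and OvacD8-3 and between -0.12 and 0.19 on the other 4 arrays. That of the Gapdh control did not separate them, at -0.14 and -0.22 on OvacD8-2 and OvacD8-3, -0.15 on 2D11-1 and -0.02 to 0.27 on the other 3 arrays. The part of these differences in the results was not tested, and the members' differences are given over all arrays and without OvacD8-1. Without it, the groups coincide with the spike-in split, so the kind of cell and that split cannot be told apart there. Among 6 measured T cell markers, 1 differed (6.67% of all genes did), Cd8b1, which encodes the CD8 beta chain. It was lower in 2D11, by -2.36 ± 0.11 (SE, n = 3 per group; limma adjusted p = 0.00093). Because levels were removed, presence or absence of a marker cannot be read.

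On 11 of the 34 genes (32.4%), OvacD8-1 departed from the other OvacD8 arrays, against 2.57% of all genes. It lay below them on 10 genes (29.4% of members, 2.01% of all genes) and above them on 1, Relb (0.561% of all genes). An array was said to depart where it lay at least 1 on the log2 scale (2-fold) above both or below both of the others, which lay closer to each other. On 22 genes the 3 OvacD8 arrays agreed within 1, as they did on 95.8% of all genes, and Nfkbia fell in neither class, as did 1.64% of all genes. The 2D11 arrays spanned under 1 on 32 of 34 genes, the exceptions being Fos and Bcl3, and on 99.5% of all genes. The genes just inside the limit of 1 were Irf8 at 1.04 and Relb at 1.11, and the nearest outside were Nfkbia at 0.99 and Btg2 at 0.68. OvacD8-2 and OvacD8-3 lay within 1 of each other on 34 of 34 genes, as on 99.9% of all genes. On all 11 genes OvacD8-1 lay nearer to the 2D11 mean than to the mean of OvacD8-2 and OvacD8-3, as it did on 400 of the 468 genes (85.5%) on which it departed across the arrays. Nearer did not mean alike: it lay within the range of the 2D11 arrays on 3 of the 11, below it on 7 and above it on 1. Of the 468 genes these were 84, 164 and 220.

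**Figure D1:**
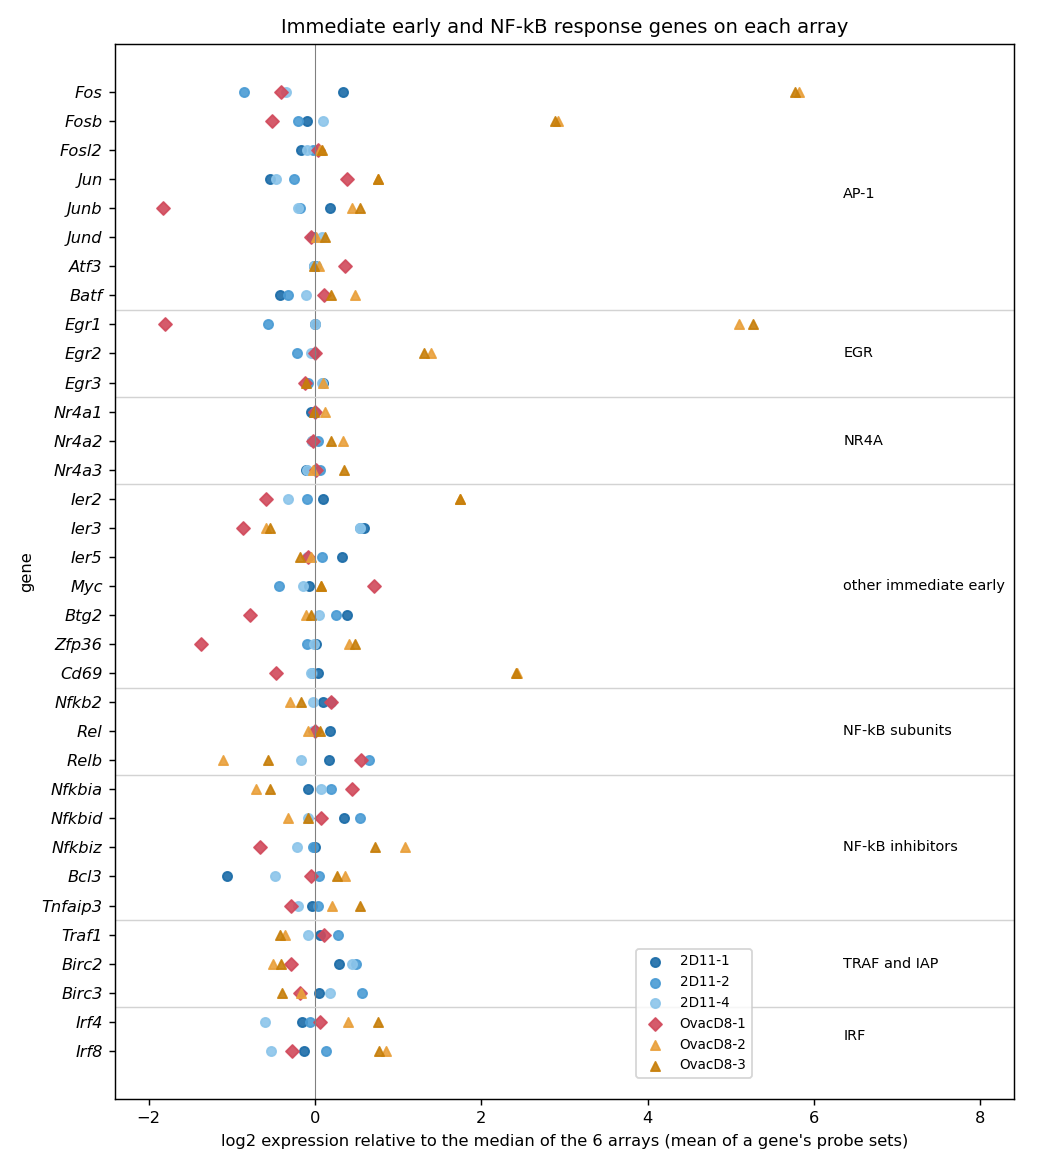
Log2 expression of each gene relative to the median of the 6 arrays (horizontal axis), 1 row per gene grouped by role, with circles for the 2D11 arrays, diamonds for OvacD8-1 and triangles for OvacD8-2 and OvacD8-3. Fos and Egr1 stand between 5.09 and 5.82 on OvacD8-2 and OvacD8-3 and at 0.34 or lower on the other 4 arrays.

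Over all 6 arrays, 3 of the 34 genes differed between 2D11 and OvacD8 (8.82%, limma with Benjamini-Hochberg adjustment over all genes), against 6.67% of all genes. Ier3 and Birc2 were higher in 2D11 (5.88% of members, 3.30% of all genes), and Jun was lower (2.94% of members, 3.37% of all genes). These shares lie near those of all genes. Ier3 and Jun also differed by at least 1, as 2.60% of all genes did, and they were the members on which the OvacD8 arrays agreed and the 2D11 mean lay at least 1 away, as on 2.64% of all genes. Of all 18193 genes, 600 were higher and 614 lower in 2D11, or 457 and 732 with quantile normalisation between arrays. At an unadjusted p under 0.05 the members numbered 7, or 20.6%, against 19.9% of all genes. The median difference, 2D11 minus OvacD8, was -0.15 over the members and 0.007 over all genes. Without OvacD8-1, 13 members differed (38.2%, against 17.2% of all genes), 3 higher and 10 lower in 2D11, against 7.80% of all genes higher and 9.40% lower, and the median of the members was -0.24. When the spike-in split was adjusted for, 10 members passed (7.48% of all genes did), 7 higher (2.83% of all genes) and 3 lower (4.66%). In that fit the difference rests on OvacD8-1 alone against the 2D11 arrays, because OvacD8-2 and OvacD8-3 set the size of the split.

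The proximal promoters of 6 genes are shown as the stretch from 250 bases before to 50 after the start of transcription, from RefSeq, build GRCm38.p6. Those of Ier3, Birc2 and Jun are shown because these genes passed the test over all 6 arrays. Those of Fos, Fosb and Nfkbia were chosen after their values were seen. OvacD8-1 departed on Fos and Fosb, while on Nfkbia it fell just short of the limit, at 0.99. Other departing genes with a promoter at hand (Egr2, Junb, Zfp36 and Irf8) are not shown. Capitals mark matches, on either strand, to the motifs of AP-1 (TGANTCA), the cyclic AMP response element CRE (TGACGTCA), EGR factors (GCGNGGGCG), NF-kB and the CArG box of serum response factor. No matches overlapped in these promoters.
Ier3, chr17:35821463-35821762, plus strand: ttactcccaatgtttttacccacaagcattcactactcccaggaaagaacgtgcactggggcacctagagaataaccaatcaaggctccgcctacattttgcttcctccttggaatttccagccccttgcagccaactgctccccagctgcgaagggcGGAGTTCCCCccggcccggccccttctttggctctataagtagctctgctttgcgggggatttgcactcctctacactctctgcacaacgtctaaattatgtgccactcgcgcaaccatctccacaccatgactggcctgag
Birc2, chr9:7837008-7837307, minus strand, the first of 2 listed starts: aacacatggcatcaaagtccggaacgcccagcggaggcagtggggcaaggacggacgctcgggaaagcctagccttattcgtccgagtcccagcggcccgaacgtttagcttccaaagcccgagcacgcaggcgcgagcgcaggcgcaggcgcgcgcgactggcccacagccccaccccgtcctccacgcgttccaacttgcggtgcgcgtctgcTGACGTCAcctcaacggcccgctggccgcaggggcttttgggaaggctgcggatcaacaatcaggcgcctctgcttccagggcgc
Jun, chr4:95052173-95052472, minus strand: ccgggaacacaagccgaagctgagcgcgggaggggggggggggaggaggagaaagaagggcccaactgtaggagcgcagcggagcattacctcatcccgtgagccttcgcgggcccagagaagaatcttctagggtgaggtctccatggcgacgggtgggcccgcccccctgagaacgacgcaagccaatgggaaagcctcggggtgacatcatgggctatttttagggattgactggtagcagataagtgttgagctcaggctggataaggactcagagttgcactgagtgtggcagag
Fos, chr12:85473640-85473939, plus strand: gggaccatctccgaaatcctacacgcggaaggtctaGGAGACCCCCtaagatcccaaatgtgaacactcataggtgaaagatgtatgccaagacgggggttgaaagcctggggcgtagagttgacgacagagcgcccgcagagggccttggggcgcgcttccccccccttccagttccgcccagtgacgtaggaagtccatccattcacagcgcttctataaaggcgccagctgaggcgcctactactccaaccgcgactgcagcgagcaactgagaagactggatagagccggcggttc
Fosb, chr7:19309996-19310295, minus strand: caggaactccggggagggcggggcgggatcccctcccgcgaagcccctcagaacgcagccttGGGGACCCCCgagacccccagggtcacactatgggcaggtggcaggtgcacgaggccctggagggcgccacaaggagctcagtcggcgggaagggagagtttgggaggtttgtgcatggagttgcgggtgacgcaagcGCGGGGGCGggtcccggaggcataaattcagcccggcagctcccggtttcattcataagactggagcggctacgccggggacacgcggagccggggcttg
Nfkbia, chr12:55492598-55492897, minus strand: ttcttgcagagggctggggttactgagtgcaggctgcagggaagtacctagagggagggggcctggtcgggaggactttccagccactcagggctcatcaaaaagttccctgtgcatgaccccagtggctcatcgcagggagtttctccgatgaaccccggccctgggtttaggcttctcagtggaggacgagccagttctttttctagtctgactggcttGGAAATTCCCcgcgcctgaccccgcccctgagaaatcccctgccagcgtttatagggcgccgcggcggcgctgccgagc
The NF-kB match of Nfkbia begins 29 bases before the start, and that of Ier3 begins 92 bases before it. Fos and Fosb hold an NF-kB match beginning 214 and 188 bases before the start, and Fosb an EGR match beginning 50 bases before it. Birc2 holds a CRE match beginning 35 bases before the start, and Jun holds no match in this window.

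RefSeq promoters were at hand for 27 of the 35 listed genes (not for Egr1, Egr3, Ier2, Myc, Cd69, Nfkb1, Relb and Nfkbiz), in 38 windows, since some genes have several starts whose windows overlap. The NF-kB motif was found in 13 of the 38 windows (34.2%), those of Bcl3, Fos, Fosb, Fosl2, Ier3, Nfkb2, Nfkbia, Nfkbid, Nr4a1, Rel and Tnfaip3, against 4.51% of 32851 promoters of the same length. The EGR motif was in 7 windows (18.4%, against 5.55%), the CArG box in 5 windows of Egr2 and Zfp36 (13.2%, against 1.63%), and CRE in 3 (7.89%, against 1.79%). The AP-1 motif was in 2 windows (5.26%, against 7.81%). A match is a run of letters, not a shown binding site. The genes were listed as targets of such factors, so these shares are a description of the list.

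Fos and Fosb had the widest ranges of the AP-1 genes. Fos encodes a protein that pairs with JUN proteins in the classical AP-1 dimer. It stood at 0.34, -0.85 and -0.34 on 2D11-1, 2D11-2 and 2D11-4, at -0.41 on OvacD8-1, and at 5.82 and 5.77 on OvacD8-2 and OvacD8-3. OvacD8-1 lay within the 2D11 arrays and stood at -6.20 relative to the mean of the other OvacD8 arrays, the 4th largest such distance among 18193 genes. The difference over all arrays was -4.01 ± 1.88 and did not pass (limma adjusted p = 0.346). Without OvacD8-1 it was -6.08 ± 0.38 (adjusted p = 0.00254), and adjusting for the spike-in split gave 0.12 (adjusted p = 1.00).

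Fosb, a close relative of Fos, was also high on OvacD8-2 and OvacD8-3 alone, at a smaller size. Its values were -0.10, -0.20 and 0.10 on the 2D11 arrays, -0.52 on OvacD8-1, and 2.93 and 2.89 on OvacD8-2 and OvacD8-3. OvacD8-1 was the lowest of the 6 arrays, and the difference of -1.83 ± 1.03 did not pass (adjusted p = 0.450; -2.97, adjusted p = 0.00061, without OvacD8-1). Fosl2, which encodes the FOS relative FRA2, spanned little, with -0.17, -0.02 and -0.10 in 2D11 and 0.03, 0.06 and 0.08 in OvacD8. Its groups did not overlap, yet the difference of -0.16 ± 0.04 did not pass (adjusted p = 0.123; -0.17, adjusted p = 0.114, without OvacD8-1), and 1 of its 2 probe sets was flat across the arrays.

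The JUN genes did not move together. Jun stood at -0.53, -0.25 and -0.47 in 2D11 and at 0.39, 0.75 and 0.76 in OvacD8, so the groups did not overlap in the mean of its probe sets. It was lower in 2D11 by -1.05 ± 0.13, a 2.08-fold difference (adjusted p = 0.0172; -1.18, adjusted p = 0.00462, without OvacD8-1), with probe sets at -1.27 and -0.84. It kept its call when the spike-in split was adjusted for (-0.81, adjusted p = 0.0383). The call was lost without 2D11-1 (adjusted p = 0.0746), 2D11-4 (0.0691), OvacD8-2 (0.0766) or OvacD8-3 (0.0671), at differences between -1.03 and -0.99. Fitted singly, the probe set at -1.27 passed (limma adjusted p = 0.0102) and that at -0.84 did not (adjusted p = 0.245). On the latter OvacD8-1 stood at 0.05, near 2D11-2 at -0.05, while OvacD8-2 and OvacD8-3 stood at 1.05 and 0.71.

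Junb, which encodes an AP-1 subunit that can oppose JUN, had its lowest value on OvacD8-1. That array stood at -1.83, while the 2D11 arrays stood at 0.18, -0.18 and -0.20 and the other OvacD8 arrays at 0.45 and 0.54. The groups overlapped, and the difference of 0.21 ± 0.70 did not pass (adjusted p = 0.933). Without OvacD8-1 its sign turned, to -0.57 (adjusted p = 0.0748), and after adjusting for the spike-in split it was 1.76 (adjusted p = 0.0157), so the direction rests on that array. Jund, the steadily expressed JUN gene, spanned -0.05 to 0.13 over all 6 arrays (difference -0.03, adjusted p = 0.919; -0.07, adjusted p = 0.638, without OvacD8-1).

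Atf3 and Batf belong to the wider bZIP family. Atf3, a stress-induced repressor, stood at 0.36 on OvacD8-1 and between -0.01 and 0.05 on the other 5 arrays (difference -0.14, adjusted p = 0.633; -0.02, adjusted p = 0.693, without OvacD8-1). Batf, a partner of JUN proteins and IRF4 in activated T cells, stood at -0.42, -0.32 and -0.11 in 2D11 and at 0.11, 0.49 and 0.19 in OvacD8. Its groups did not overlap, and the difference of -0.55 ± 0.13 missed the threshold (adjusted p = 0.0919; -0.62, adjusted p = 0.0563, without OvacD8-1). When only the 12198 genes spanning at least 0.1 were tested, Batf passed (adjusted p = 0.0459). Of the 8 AP-1 genes, Jun alone passed over all arrays, and 3 were lower in 2D11 without OvacD8-1 (Fos, Fosb and Jun). Of all genes, 6.67% passed over all arrays and 9.40% were lower without OvacD8-1.

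The EGR genes encode zinc finger factors induced by ERK signalling, and EGR2 and EGR3 are also known as restraints on T cell activation. Egr1 stood at -0.002, -0.56 and 0.002 in 2D11, at -1.81 on OvacD8-1, and at 5.09 and 5.27 on OvacD8-2 and OvacD8-3. OvacD8-1 was the lowest array by more than 1, and its place of -6.99 relative to the mean of the other OvacD8 arrays ranked 2nd among all genes. The difference was -3.04 ± 2.09 (adjusted p = 0.584), -5.37 without OvacD8-1 (adjusted p = 0.000897), and 1.62 after adjusting for the spike-in split (adjusted p = 0.0479), an estimate that rests on the low value of OvacD8-1.

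Egr2 stood at -0.01, -0.21 and -0.05 in 2D11, at 0.005 on OvacD8-1, and at 1.40 and 1.31 on the other OvacD8 arrays. OvacD8-1 lay just above the 2D11 arrays, so the groups did not overlap, but the difference of -0.99 ± 0.41 did not pass (adjusted p = 0.279; -1.44, adjusted p = 0.00167, without OvacD8-1). Its probe sets differed in size, at -1.62 and -0.36, and on the latter the groups overlapped, with OvacD8-1 at -0.006. Egr3 spanned only -0.12 to 0.09 (difference 0.08, adjusted p = 0.761; 0.04, adjusted p = 0.792, without OvacD8-1), and 1 of its 2 probe sets was flat.

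The NR4A orphan nuclear receptors, whose genes are quick reporters of antigen receptor signals, had gene means close to the middle on all arrays, in part as averages of unlike probe sets. Nr4a1 (NUR77) lay between -0.05 and 0.12, and its difference was -0.06 ± 0.04 (adjusted p = 0.639; -0.07, adjusted p = 0.491, without OvacD8-1). Nr4a2 stood highest on OvacD8-2 and OvacD8-3, at 0.33 and 0.19, with the other 4 arrays between -0.04 and 0.04. It did not pass (-0.18, adjusted p = 0.417) and was lower in 2D11 without OvacD8-1 (-0.28, adjusted p = 0.0444), as the mean of 6 probe sets from -0.57 to 0.04. On OvacD8-2 and OvacD8-3, 1 of these stood at 1.28 and 0.54 and another at 0.69 and 0.36. Nr4a3 stood at 0.34 on OvacD8-3 and between -0.11 and 0.06 elsewhere (difference -0.16, adjusted p = 0.611; -0.21, adjusted p = 0.463, without OvacD8-1). Its 3 probe sets differed by -0.49 to 0.008, and 1 of them stood at 1.03 on OvacD8-3. None of the 3 passed over all arrays (0 at an unadjusted p under 0.05, limma), against 6.67% of all genes (19.9% unadjusted).

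Among the other immediate early genes, Cd69 and Ier2 were also high on OvacD8-2 and OvacD8-3 alone. Cd69, a lectin that appears early on activated lymphocytes and keeps them in tissue by opposing S1PR1, stood at 0.04, -0.04 and -0.05 in 2D11 and at -0.47 on OvacD8-1. It stood at 2.43 and 2.41 on OvacD8-2 and OvacD8-3. The difference of -1.47 ± 0.86 did not pass (adjusted p = 0.478), and it was -2.44 ± 0.03 without OvacD8-1 (adjusted p = 0.000106). After adjusting for the spike-in split Cd69 passed in the other direction, at 0.45 (adjusted p = 0.0138). Ier2, a nuclear protein gene of the serum response, stood at 0.10, -0.10 and -0.32 in 2D11, at -0.58 on OvacD8-1, and at 1.74 and 1.75 on the others (difference -1.07 ± 0.70, adjusted p = 0.552; -1.85, adjusted p = 0.00355, without OvacD8-1). In both genes OvacD8-1 was the lowest of the 6 arrays.

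Zfp36 encodes tristetraprolin, which speeds the decay of cytokine mRNAs. It stood at 0.009, -0.10 and -0.009 in 2D11, at -1.37 on OvacD8-1, and at 0.41 and 0.48 on OvacD8-2 and OvacD8-3. The 2D11 arrays thus lay between the OvacD8 arrays. The difference of 0.13 ± 0.54 did not pass (adjusted p = 0.937), and without OvacD8-1 its sign turned and it passed, at -0.47 ± 0.05 (adjusted p = 0.00684). After adjusting for the spike-in split it passed as higher in 2D11, at 1.34 (adjusted p = 0.0023), so these fits called it in opposite directions.

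Ier3 ran the other way and all OvacD8 arrays agreed on it. Ier3 encodes a small survival protein that is itself a target of NF-kB and ERK. It stood at 0.59, 0.54 and 0.54 in 2D11 and at -0.86, -0.58 and -0.54 in OvacD8, with a gap of over 1 between the groups. It was higher in 2D11 by 1.22 ± 0.09, or 2.33-fold (adjusted p = 0.00406; 1.12, adjusted p = 0.000357, without OvacD8-1), and passed in each of the 6 fits without 1 array (highest adjusted p = 0.0283, without 2D11-1). Btg2, an antiproliferative gene, also had groups that did not overlap, at 0.38, 0.25 and 0.04 in 2D11 and at -0.78, -0.10 and -0.05 in OvacD8. Its difference of 0.54 ± 0.23 did not pass (adjusted p = 0.297; 0.30, adjusted p = 0.179, without OvacD8-1). On 1 of its 2 probe sets the groups overlapped, and OvacD8-1 stood at -1.18, against -0.03 and 0.03 on OvacD8-2 and OvacD8-3.

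Myc, the driver of growth in activated T cells, was highest on OvacD8-1, at 0.71, against 0.07 on each of the other OvacD8 arrays and -0.07, -0.43 and -0.14 in 2D11. The groups did not overlap, and the difference of -0.50 ± 0.22 did not pass (adjusted p = 0.308; -0.28, adjusted p = 0.258, without OvacD8-1). Ier5, a gene of the heat and growth factor response, spanned -0.18 to 0.32 (difference 0.20, adjusted p = 0.446; 0.22, adjusted p = 0.483, without OvacD8-1). Its median probe set, in place of the mean of 3, passed as higher in 2D11 (0.17, adjusted p = 0.0185). Of the 7 genes in this group, Ier3 passed over all arrays, and Ier3, Ier2, Zfp36 and Cd69 did without OvacD8-1. The shares of all genes were 6.67% and 17.2%.

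**Figure D2:**
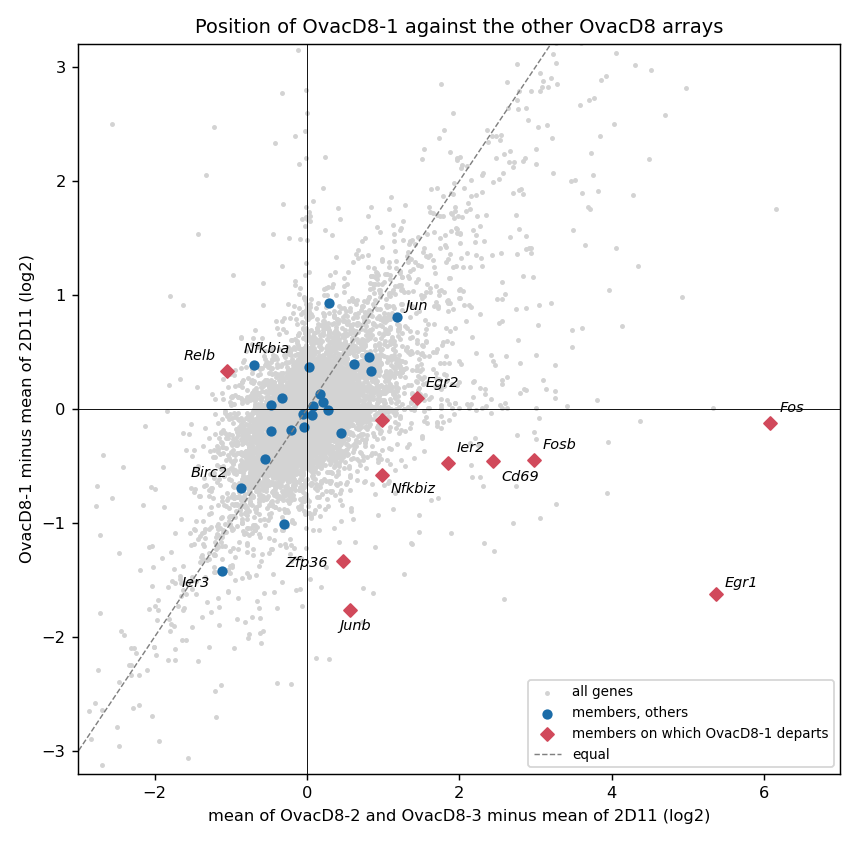
For each gene, the mean of OvacD8-2 and OvacD8-3 minus the 2D11 mean (horizontal, log2) against OvacD8-1 minus the 2D11 mean (vertical, log2), with all genes in grey, the 11 members on which OvacD8-1 departs as diamonds and other members as blue circles. 73 of 18193 genes lie outside the axes. Ier3, Birc2 and Jun lie near the dashed line of equal values, while Fos lies at 6.08 across and -0.12 up.

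The NF-kB subunits and inhibitors showed smaller differences, in which some ran opposite to Fos. Relb, the subunit of the non-canonical pathway, stood at 0.17, 0.65 and -0.17 in 2D11, at 0.55 on OvacD8-1, and at -1.11 and -0.56 on OvacD8-2 and OvacD8-3. OvacD8-1 lay within the 2D11 arrays, and the difference of 0.59 ± 0.49 did not pass (adjusted p = 0.682; 1.05, adjusted p = 0.116, without OvacD8-1). Nfkb2, which encodes the precursor that partners RELB, stood at 0.10, 0.20 and -0.02 in 2D11, at 0.19 on OvacD8-1, and at -0.29 and -0.17 on the others (difference 0.18, adjusted p = 0.655; 0.32, adjusted p = 0.0779, without OvacD8-1). Its sign turned when its _x_at probe set, a kind with probes shared between genes, was left out (-0.04). Rel, the c-Rel subunit, spanned -0.08 to 0.18 (difference 0.05, adjusted p = 0.830; 0.06, adjusted p = 0.764, without OvacD8-1).

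Nfkbia is both the main brake on NF-kB and a direct target of it. It stood at -0.08, 0.19 and 0.08 in 2D11, at 0.45 on OvacD8-1, and at -0.71 and -0.54 on OvacD8-2 and OvacD8-3. OvacD8-1 was the highest array and the other OvacD8 arrays the lowest. The difference of 0.33 ± 0.33 did not pass (adjusted p = 0.738), and without OvacD8-1 it was 0.69 ± 0.10 (adjusted p = 0.0202). All 5 probe sets gave a positive difference, from 0.23 to 0.46.

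Nfkbiz encodes IkB-zeta, an atypical nuclear IkB that works with NF-kB at chosen promoters. It ran opposite to Nfkbia, at 0.005, -0.03 and -0.22 in 2D11, -0.66 on OvacD8-1, and 1.08 and 0.73 on the others. OvacD8-1 was the lowest array, and the difference of -0.46 ± 0.48 did not pass (adjusted p = 0.755; -0.98, adjusted p = 0.0173, without OvacD8-1). Tnfaip3, which encodes the ubiquitin editor A20, lay between -0.28 on OvacD8-1 and 0.54 on OvacD8-3 (difference -0.22, adjusted p = 0.744; -0.44, adjusted p = 0.116, without OvacD8-1). Bcl3, a nuclear IkB that binds NF-kB p50 and p52, varied most within 2D11 among the NF-kB subunit and inhibitor genes, at -1.05, 0.04 and -0.49, against -0.04, 0.36 and 0.27 in OvacD8 (difference -0.69 ± 0.30, adjusted p = 0.314; -0.81, adjusted p = 0.255, without OvacD8-1). Nfkbid, a further nuclear IkB, stood at 0.35, 0.54 and -0.08 in 2D11 and at 0.08, -0.32 and -0.08 in OvacD8 (difference 0.38, adjusted p = 0.399; 0.47, adjusted p = 0.284, without OvacD8-1). Of the 8 subunit and inhibitor genes measured, none passed over all arrays (0 at an unadjusted p under 0.05, limma). That compares with 6.67% of all genes (19.9% unadjusted). Nfkbia and Nfkbiz passed in opposite directions without OvacD8-1, where 17.2% of all genes passed.

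The genes of TRAF and IAP proteins, which relay and limit signals from tumour necrosis factor receptors, had a median difference of 0.51. Of the 3 genes 1 passed, against 6.67% of all genes. Birc2, which encodes the ubiquitin ligase cIAP1, stood at 0.29, 0.49 and 0.44 in 2D11 and at -0.29, -0.50 and -0.41 in OvacD8. All OvacD8 arrays agreed, and Birc2 was higher in 2D11 by 0.81 ± 0.08, or 1.75-fold (adjusted p = 0.0086; 0.86, adjusted p = 0.00566, without OvacD8-1). It passed in each of the 6 fits without 1 array (highest adjusted p = 0.0436, without OvacD8-3). Birc3, the neighbouring gene for cIAP2 and an NF-kB target, stood at 0.05, 0.57 and 0.18 in 2D11 and at -0.17, -0.17 and -0.40 in OvacD8. Its groups did not overlap, and the difference of 0.51 ± 0.16 did not pass (adjusted p = 0.157; 0.55, adjusted p = 0.158, without OvacD8-1), with probe sets at 0.16 and 0.87. Traf1, a further NF-kB target, stood at -0.36 and -0.42 on OvacD8-2 and OvacD8-3 and between -0.09 and 0.28 on the other 4 arrays (difference 0.30, adjusted p = 0.483; 0.47, adjusted p = 0.0762, without OvacD8-1). Its 2 probe sets were unlike, at -0.70 and -0.72 on OvacD8-2 and OvacD8-3 for 1 and -0.02 and -0.12 for the other. Without OvacD8-1 the former passed (limma adjusted p = 0.00433) and the latter did not (0.751).

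Neither of the IRF genes passed over all arrays (1 of them at an unadjusted p under 0.05, limma), against 6.67% of all genes (19.9% unadjusted). Irf4, whose level in T cells follows the strength of the antigen receptor signal, stood at -0.15, -0.06 and -0.60 in 2D11 and at 0.06, 0.39 and 0.75 in OvacD8. The groups did not overlap, and the difference was -0.67 ± 0.23 (adjusted p = 0.202; -0.84, adjusted p = 0.0789, without OvacD8-1). Irf8, a factor of myeloid and B cells that effector CD8 T cells also use, stood at -0.13, 0.13 and -0.53 in 2D11, at -0.27 on OvacD8-1, and at 0.86 and 0.76 on the others (difference -0.63 ± 0.37, adjusted p = 0.477; -0.99, adjusted p = 0.0519, without OvacD8-1). OvacD8-1 lay among the 2D11 arrays for Irf8.

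**Figure D3:**
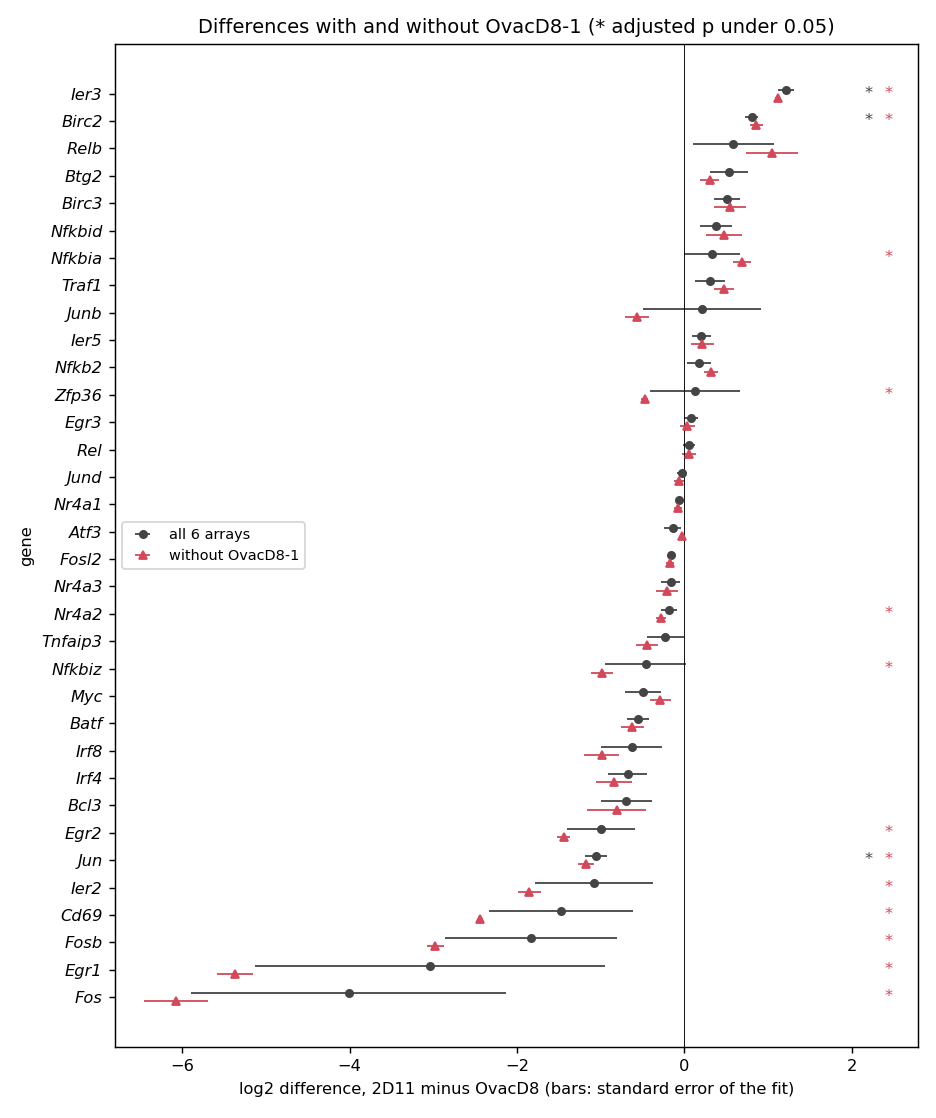
Log2 difference, 2D11 minus OvacD8, of each gene with the standard error of the fit (bars), over all 6 arrays (circles) and without OvacD8-1 (triangles); asterisks mark an adjusted p under 0.05 in the fit of that colour. Ier3, Birc2 and Jun carry an asterisk in both fits, while Fos, Egr1, Fosb, Cd69, Ier2 and Egr2 carry it only without OvacD8-1.

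Of the 22 agreeing genes, the groups did not overlap in 9, 4 with 2D11 above and 5 below, and Ier3, Birc2 and Jun passed. This holds for gene means, and the groups did overlap on a probe set each of Btg2, Birc3, Irf4 and Fosl2. Egr2, whose groups overlapped on 1 of its 2 probe sets, brought the members whose groups did not overlap to 10 (29.4%), against 23.3% of all genes. The 2D11 arrays lay above in 4 of these (11.8%, against 12.6% of all genes) and below in 6 (17.6%, against 10.7%). The absolute difference was under 0.3 in 11 of the 22. How many of all 17427 agreeing genes passed or had groups that did not overlap was not counted, so these counts are a description. For the 11 departing genes, the rule that chose them also sets how far the OvacD8 arrays spread with and without OvacD8-1, so their calls in those fits are a description.

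By single probe sets, 3 of the 61 differed over all arrays, 2 higher (2.00% of 45037 probe sets) and 1 lower in 2D11 (2.05%), for 4.92% of members' probe sets against 4.06% of all. They were those of Ier3 and Birc2 and 1 of Jun. Without OvacD8-1, 19 did, 7 higher (11.5%, against 4.80%) and 12 lower (19.7%, against 5.80%), and without 2D11-4 the number was 1.

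The regulators and brakes that surround the immediate early genes were read from a separate list of 36 measured genes. Of these, 3 were higher and 3 lower in 2D11, against 3.30% and 3.37% of all genes, with a median of -0.05 (all genes, 0.007). Dusp4, a nuclear phosphatase that switches off ERK, was higher by 2.03 ± 0.31 (adjusted p = 0.0275), at 0.96, 1.86 and 0.75 in 2D11 and at -0.90, -0.75 and -0.89 in OvacD8. Spry2, a further brake on ERK signalling, was lower by -1.50 ± 0.13 (adjusted p = 0.0055), at -0.72, -0.61 and -0.87 against 0.67, 0.61 and 1.00. The 2 brakes differed in opposite directions, with all OvacD8 arrays on the same side. Dusp4 lost its call without 2D11-1, OvacD8-2 or OvacD8-3. In these fits 0 genes of the list were called higher, and 2, 3 and 2 were called lower. Btg1 (0.81) and Zfp36l2 (0.19) were higher, and Nab1, a corepressor of EGR factors (-0.40), and Nfatc1 (-0.19) were lower. The 6 calls became 2 without 2D11-1, 3 without 2D11-4, 3 without OvacD8-2, 2 without OvacD8-3 and 19 without OvacD8-1. Of all genes, 6.67% were called over all arrays, 17.2% without OvacD8-1 and 2.87% to 3.83% without 1 of the other arrays.

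OvacD8-1 departed on 7 of these 36 genes, against 2.57% of all genes. It lay below the other OvacD8 arrays on 6 of them, against 2.01% of all genes. Dusp6, a cytoplasmic ERK phosphatase that ERK itself induces, stood at -0.11, 0.11 and -0.32 in 2D11, at -0.40 on OvacD8-1, and at 3.82 and 3.86 on OvacD8-2 and OvacD8-3 (difference -2.53 ± 1.27, adjusted p = 0.386; -3.94, adjusted p = 0.000703, without OvacD8-1). Dusp5 stood at -0.02, -0.04 and 0.02 in 2D11, at -0.05 on OvacD8-1, and at 2.45 and 2.36 on the others (difference -1.60, adjusted p = 0.334; -2.42, adjusted p = 0.00013, without OvacD8-1). Dusp1, a phosphatase of JNK and p38, stood at 0.003, -0.35 and -0.003, at -1.36 on OvacD8-1, and at 2.27 and 2.41 (difference -1.23, adjusted p = 0.712; -2.46, adjusted p = 0.0019, without OvacD8-1; 1.24, adjusted p = 0.0324, adjusting for the spike-in split). In these 3 genes OvacD8-1 was the lowest array, as in Egr1 but not in Fos, and the groups overlapped through it.

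Klf2, the factor that maintains S1PR1 and is normally reduced in activated T cells, stood at 2.54 and 1.68 on OvacD8-2 and OvacD8-3 and between -0.10 and 0.04 on the other 4 arrays (difference -1.49, adjusted p = 0.317; -2.18, adjusted p = 0.0137, without OvacD8-1). Klf6 and Batf3 were lowest on OvacD8-1, at -0.85 and -1.55. Zfp36l1, a relative of Zfp36, ran the other way, at -1.37 and -1.30 on OvacD8-2 and OvacD8-3 and between -0.03 and 0.32 on the other 4 arrays (difference 1.06, adjusted p = 0.271; 1.53, adjusted p = 0.00485, without OvacD8-1).

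**Figure D4:**
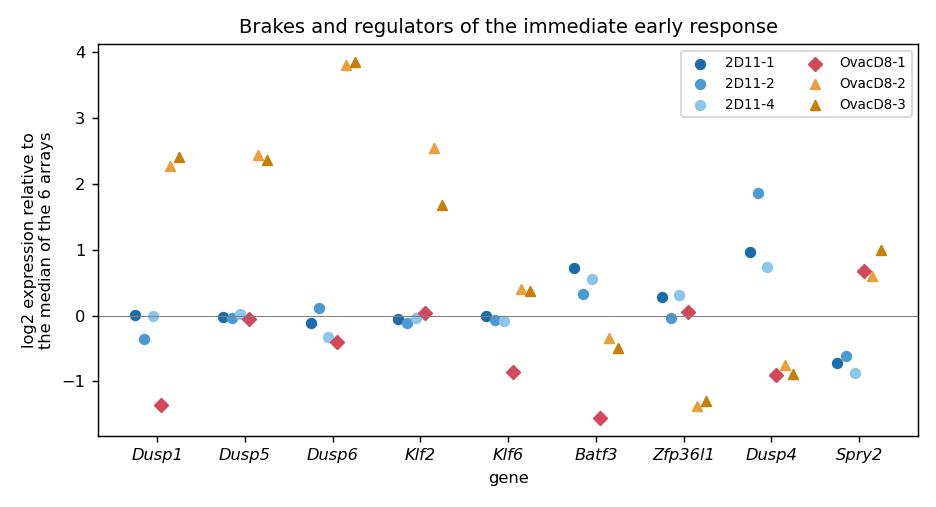
Log2 expression relative to the median of the 6 arrays (vertical axis) of 9 regulators and brakes of the immediate early response, with circles for 2D11, diamonds for OvacD8-1 and triangles for OvacD8-2 and OvacD8-3. Dusp1, Dusp5, Dusp6 and Klf2 are high on OvacD8-2 and OvacD8-3 alone, while for Dusp4 and Spry2 all OvacD8 arrays lie on the same side of 2D11.

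Of 27 further genes of the NF-kB pathway, 2 were higher and 1 lower in 2D11, against 3.30% and 3.37% of all genes, with a median of 0.05. Tnip1, which encodes an A20-binding inhibitor of NF-kB, was higher by 0.87 ± 0.15 (adjusted p = 0.0416), and the kinase gene Ikbke by 0.73 ± 0.13 (adjusted p = 0.0379). Tab1, a partner of the kinase TAK1, was lower by -0.27 ± 0.04 (adjusted p = 0.0264). Traf2 stood at 0.67 on OvacD8-1, at -0.66 on each of OvacD8-2 and OvacD8-3, and at -0.14, 0.14 and 0.15 in 2D11 (difference 0.27, adjusted p = 0.861; 0.71, adjusted p = 0.021, without OvacD8-1). The 3 calls became 10 without OvacD8-1, where 17.2% of all genes were called. They became 1 without 2D11-2 or 2D11-4, and 0 without 2D11-1, OvacD8-2 or OvacD8-3, against 2.87% to 3.83% of all genes. In the last 3 of these fits 8, 7 and 9 had an unadjusted p under 0.05 (limma).

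Of 14 heat shock and stress genes, 1 differed, against 6.67% of all genes. Dnajb1, a co-chaperone, was lower in 2D11 by -0.44 ± 0.07 (adjusted p = 0.0317). OvacD8-1 departed on 0 of the 14, against 2.57% of all genes. The list's median was -0.05. Without OvacD8-1, 8 differed, 4 in each direction, against 7.80% of all genes higher in 2D11 and 9.40% lower. With any other array left out 0 differed (1 to 2 at an unadjusted p under 0.05, limma), against 2.87% to 3.83% of all genes.

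Markers of cells that could accompany the T cells were set beside these values. Of 9 macrophage and dendritic cell markers, 0 differed over all arrays (2 at an unadjusted p under 0.05, limma), against 6.67% of all genes. Their summed values ran from -1.12 to -0.003 in 2D11 and from 1.36 to 4.60 in OvacD8, highest on OvacD8-1. OvacD8-1 was the highest array by at least 1 on 2 of the 9, Csf1r and Lyz2. On Adgre1, Itgam, Fcgr1, Flt3 and Xcr1 it stood between 0.006 and 0.013, within the range of the 2D11 arrays. Without OvacD8-1, 3 of the 9 differed, against 17.2% of all genes. Lyz2 was higher in 2D11 (2.56, adjusted p = 0.036), and Cd68 (-3.96, adjusted p = 0.000284) and Cd14 (-0.98, adjusted p = 0.00202) were lower. Csf1r stood at 1.17 on OvacD8-1 and between -0.08 and 0.003 on the other 5 arrays, and Lyz2 at 2.70 on OvacD8-1, against 0.49, -0.49 and 0.59 in 2D11 and -1.91 and -2.82 on the other OvacD8 arrays. Cd68 stood at 3.34 and 3.44 on OvacD8-2 and OvacD8-3, at 0.48 on OvacD8-1 and from -0.71 to -0.48 in 2D11. The summed values of 5 B cell markers stayed between -0.20 and 0.11, and those of 2 NK cell markers between -0.10 and 0.09. The part of these cells in the values of Fos, Egr1 and the other departing genes was not tested.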

How the data were processed

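Total RNA was purified on RNeasy columns, then amplified with the Ovation system, per the labels' protocols. Per the submitters' processing notes, the deposited values were made with RMA, in a version that is not given. The deposited values were read as log2, a base that no source used here states. The widest span of 11.4 exceeds the natural log of a 16-bit range (11.1). Each probe set had been centred on its median over the arrays, a step no source used here mentions, so no level can be read. RMA draws values near background together, which understates differences there.

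Of 45101 probe sets, 64 controls were left out. The array's annotation table gave 34945 a single symbol, and RefSeq (GRCm38.p6) changed 0. A gene is the mean of its probe sets. Groups were compared with limma 3.58.1 in R 4.3.3 (lmFit and eBayes, two-sided, Benjamini-Hochberg over all features). Differences are 2D11 minus OvacD8 ± SE, and genes passed at an adjusted p under 0.05. The fit was tested on simulated data, with independent noise of equal spread on all arrays of a gene. That simulation held no departing array and no spike-in split, so it cannot speak for their effect on the fit. Numbers limit precision to 3 arrays per group.

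Members, lists, motifs and rules were chosen with earlier results of these data known. Every member is named, with each array's value where it passed or OvacD8-1 departed, and up to 3 genes per direction in other lists. Genes of those lists on which OvacD8-1 departed were also named, after their values were seen. The fits were repeated without each array in turn, with a block for the replicate number, adjusting for the spike-in split, and with array weights. Also tried were other scalings and probe set rules, robust variances, a filter on range, and other thresholds.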

Additional observations from a re-analysis of the deposited data

How the results depend on the processing

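Of 34 members, 3 passed over all arrays, and 2 to 13 did when 1 array was left out, the highest without OvacD8-1. Of all genes, 2.87% to 17.2% passed with 1 array left out. With the replicate block, 0 passed (9 at an unadjusted p under 0.05, limma), against 1.11% of all genes. Number 4 occurs only in 2D11 and number 3 only in OvacD8, so that fit compares the groups on numbers 1 and 2 alone. It could therefore call few genes. No source used here states a pairing by number. Deviations of same-numbered arrays from the group means correlated at 0.001 for number 1 and 0.17 for number 2, which cannot settle it. Adjusting for the spike-in split, 10 passed, 7 higher and 3 lower. With array weights 28 passed, as did 40.6% of all genes, but the estimation of the weights stopped before converging and gave weights from 0.222 to 8.45. The other scalings, probe set rules, thresholds, robust variances and range filter gave 2 to 4 members. Of 61 member probe sets, 1 to 19 passed with 1 array left out, and 0 with the replicate block (9 unadjusted). In the NF-kB pathway list 0 to 10 passed with 1 array left out and 0 with the replicate block (7 unadjusted); in the list of regulators and brakes 2 to 19 and 1; in the heat shock list 0 to 8 and 0 (2 unadjusted), and 0 when adjusting for the spike-in split (6 unadjusted). OvacD8-1 departed on 6 members at a distance of at least 2, and on 9 to 14 under the other settings.

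Signs turned on adjusting for the spike-in split for Fos (0.12), Fosb (0.45), Jund (0.053), Egr1 (1.62), Nr4a2 (0.0074), Ier2 (0.48), Cd69 (0.45), Nfkb2 (-0.10), Relb (-0.33), Nfkbia (-0.38), Nfkbiz (0.58), Tnfaip3 (0.22), Traf1 (-0.033) and Irf8 (0.10), of which Egr1 and Cd69 passed. There the difference is the 2D11 mean minus OvacD8-1, by construction. They turned for Junb and Zfp36 without OvacD8-1 (-0.57 and -0.47, the highest values with 1 array left out being 0.62 and 0.45) and with array weights (-0.36 and -0.43). They also turned for Jund without OvacD8-3 (0.021, down to -0.065 with another array left out), Rel without 2D11-1 (-0.011, up to 0.090), Tnfaip3 with the replicate block (0.038), Nr4a3 with the median probe set (0.0054), and Nfkb2 with the widest probe set or without _x_at and _s_at probe sets (-0.039 in each). The cause of these was not tested.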
